A study of Bos taurus with 12 samples.

Results

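The imprinted DLK1-DIO3 miRNA cluster was described in granulosa cells of bovine ovarian follicles, from small RNA sequencing of 12 libraries. Its members were chosen by name from a list of 55 bovine miRNAs. The files held 54 of these names among 755 mature miRNA names, and bta-miR-889 was not among the names read. The cells came from subordinate follicles (SF) and dominant follicles (DF) of Simmental heifers, collected at day 3 or at day 7 of the estrous cycle, with 3 biological replicates of each of the 4 groups. All heifers had been synchronized with the prostaglandin analogue cloprostenol and the GnRH analogue buserelin, none was left untreated, and the 2 days came from different heifers. The follicles were classed as SF or DF by diameter, with limits that differed between the days, so each class covers other sizes at day 7 than at day 3. The cells of follicles of like size were pooled, so a library may mix several follicles. By the paper's counts DF follicles were far fewer than SF follicles, and fewest at day 7, with 3 for the 3 libraries. The pools may thus differ in size between groups. A DF day 7 library held a single follicle unless libraries shared follicles. The labels tie no replicate to an animal. If replicates share animals or pools, the p-values below measure only the spread between these samples.

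The cluster is an array of miRNA genes between DLK1, a paternally expressed gene for a transmembrane protein of the Notch ligand family, and DIO3, the deiodinase that inactivates thyroid hormone. Its miRNAs are cut from noncoding transcripts of the maternally inherited chromosome, among them those of MEG3, MEG8 and MEG9, and the miRNAs inside RTL1 lie on the strand opposite to that paternally expressed gene. In mammals the cluster is known for its high expression in placenta, embryo and brain.

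The libraries held between 160418 and 405130 reads on known miRNAs, with 1 precursor entry kept for each mature name. A count of 3 reads, the upper limit that a count of 0 allows, was between 0.000741% and 0.00187% of a library. These limits cover counting error only, and replicates differed by more: chi-square divided by its degrees of freedom was 10.2 to 128 between libraries of a group. The granulosa label was checked on bta-miR-202, a gonadal miRNA, whose normalized count (reads divided by the library's size factor) was 2475 to 2910 (SF) and 3209 to 3766 (DF) at day 3, but 2269 to 2537 (SF) and 374 to 1000.3 (DF) at day 7. The 4 leukocyte miRNAs, of which bta-miR-142-5p and bta-miR-150 held most reads, summed to 110.4 to 226 (SF) and 118 to 166 (DF) at day 3, and to 189 to 723 (SF) and 803 to 8856 (DF) at day 7. The 5 stromal and smooth muscle miRNAs, led by bta-miR-143, summed to 4220 to 5515, 2510 to 4301 and 3304 to 5462 in SF day 3, DF day 3 and SF day 7, and to 8741 to 16997 in DF day 7. The 3 erythrocyte miRNAs summed to 323 to 1684, 755 to 1114, 449 to 528 and 829 to 2381, in the order SF day 3, DF day 3, SF day 7 and DF day 7. The 2 endothelial miRNAs summed to 105 to 134, 63.1 to 104, 93.2 to 226 and 133 to 164 in that order, and the 6 epithelial miRNAs did not exceed 22.0, with bta-miR-205 at 0. In bta-miR-202, the leukocyte list and the stromal list the DF day 7 libraries did not overlap those of any other group. The erythrocyte list did not overlap between SF and DF at day 7, nor the endothelial list between the days in DF. SF and DF at day 3 also did not overlap in bta-miR-202, which was higher in DF, and in the endothelial list, which was higher in SF. Replicate 2 of DF day 7 had the fewest reads, the most leukocyte miRNA and the least bta-miR-202 of the 12 libraries. The part of these cells in the results below was not tested, and fewer cells of a type cannot be told apart from less RNA per cell.

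The cluster was almost silent in these cells apart from 1 member, bta-miR-127. The 54 members took 1942 of 3399610 reads, or 0.0571%, and bta-miR-127 took 1714 of the 1942 (88.3%). Over the 12 libraries 30 members had at least 1 read and 24 had none, which allows each of the 24 a share of up to 8.82e-05% of all reads. Of the 30 members, 13 had exactly 1 read, 6 had 2 to 9, 10 had 10 to 39, and bta-miR-127 followed with 43.9-fold more reads than the next member, bta-miR-409a. All counts are of mature miRNAs of nearly the same length and were not scaled by length.

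A miRNA was taken as detected in a group when at least 2 of its 3 libraries held at least 1 read. By this rule 14 of the 54 members (25.9%) were detected in at least 1 group, against 364 of the other 701 mature names (51.9%). Members seen at all were closer, at 55.6% against 63.2% of the other names. The median of the detected members was 14.5 reads over the 12 libraries, against 130.5 for the other detected names. SF day 3 had 10 detected members, DF day 3 had 11, SF day 7 had 10 and DF day 7 had 7. Only bta-miR-127, bta-miR-410 and bta-miR-380-3p were detected in all 4 groups, and bta-miR-127 was the only member with a read in every library.

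In RefSeq (assembly ARS-UCD2.0, used here for gene order alone) 53 of the 54 members lay between DLK1 and DIO3. The precursors of bta-miR-544b were placed on other chromosomes, and it had 0 reads. From the DLK1 side the first members were bta-miR-493 and bta-miR-665, between MEG3 and RTL1, with 29 reads together. The 5 members within RTL1 were bta-miR-431, bta-miR-433, bta-miR-127, bta-miR-432 and bta-miR-136. They held 1729 reads, of which bta-miR-432 had 13, bta-miR-433 and bta-miR-136 had 1 each and bta-miR-431 had 0. So the high reading was that of 1 miRNA and not of its block: the nearest neighbours of bta-miR-127 in this order, bta-miR-433 and bta-miR-432, had 1 and 13 reads. The single member within MEG8, bta-miR-370, had 1 read.

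The long stretch between MEG8 and MEG9 held 45 members, of which 23 had a read, with 183 reads in all, a median of 1 and a highest total of 39. Reads lay at both ends of the stretch and in its middle: bta-miR-379 and bta-miR-411a near its start, bta-miR-381 and bta-miR-487b inside, and bta-miR-409a and bta-miR-410 near its end. Families, grouped here by name alone, held few reads. The 5 members of the bta-miR-376 family had 0 reads (bta-miR-376a, bta-miR-376c and bta-miR-376d), 1 (bta-miR-376b) and 2 (bta-miR-376e). In the bta-miR-154 family the reads were 0, 4 and 3 for bta-miR-154a, bta-miR-154b and bta-miR-154c. Both bta-miR-329a and bta-miR-329b had 0, and bta-miR-411b and bta-miR-409b had 0 beside 19 for bta-miR-411a and 39 for bta-miR-409a. How reads that match several of these sequences were divided is not given in the sources used here, so the split within a family is uncertain. Where both arms of a precursor were listed, the 3p arm had the reads: 11 against 0 for bta-miR-380 and 3 against 0 for bta-miR-369.

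**Figure D1:**
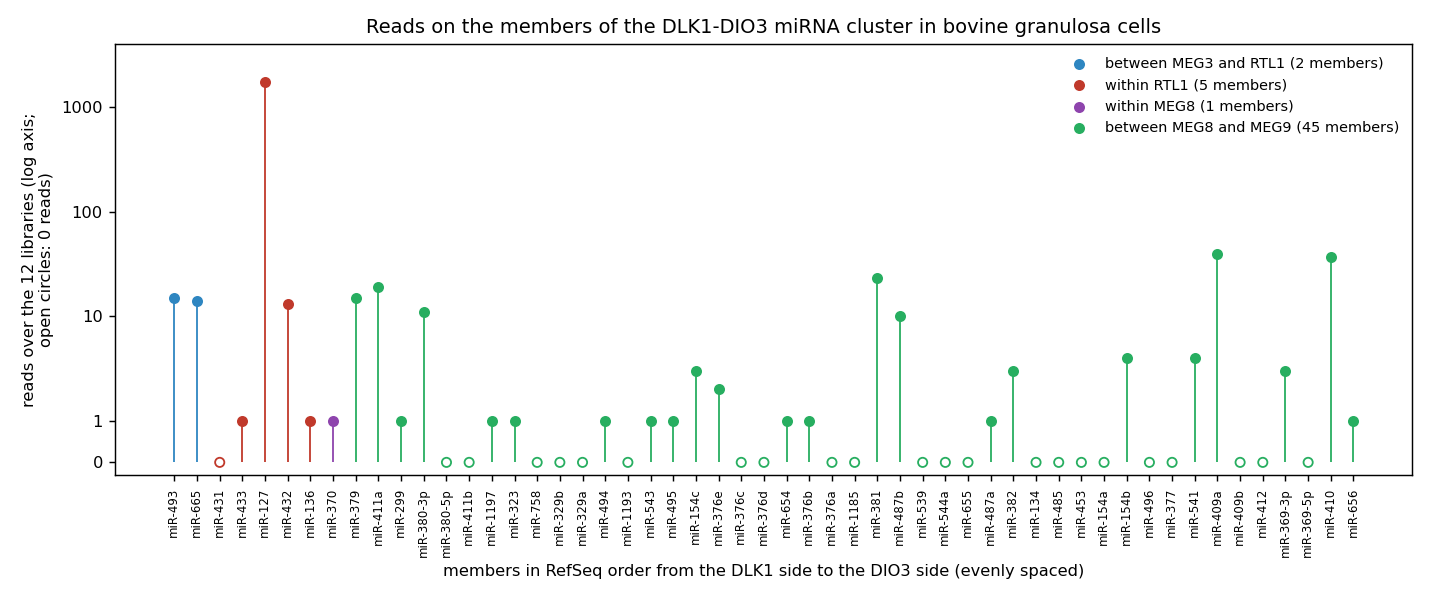
Reads over the 12 libraries (log axis, open circles at 0) for the 53 members placed in the region, in RefSeq order and evenly spaced, coloured by their position among the imprinted genes. A single point, bta-miR-127 within RTL1 with 1714 reads, stands above all others, whose highest is bta-miR-409a with 39.

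The members summed to 218, 159 and 162 reads in SF day 3, 135, 249 and 122 in DF day 3, 218, 196 and 155 in SF day 7, and 115, 32 and 181 in DF day 7 (replicates 1 to 3). As a share of all miRNA reads this was 0.0764% ± 0.00287 (SF day 3), 0.0508% ± 0.0115 (DF day 3), 0.0631% ± 0.0131 (SF day 7) and 0.0376% ± 0.0178 (DF day 7), as mean ± SD with n = 3. Without bta-miR-127 the shares were 0.00663% ± 0.000704, 0.00715% ± 0.00273, 0.00880% ± 0.00308 and 0.00363% ± 0.00245 in the same order. The shares of the other 53 members in SF and DF differed by less than either SD at day 3, and by more than either SD at day 7. In reads the other members gave 12 to 19 per library in SF day 3, 14 to 36 in DF day 3, 17 to 33 in SF day 7 and 3 to 21 in DF day 7. The number of members with a read was 8 to 11, 10 to 13, 10 to 16 and 4 to 9. In both the DF day 7 range reached below the others, and its lowest values were those of replicate 2, the shallowest library. Replicate 1 of DF day 7, which held 308121 reads, was also below every library of the other groups, at 8 reads and 6 members. Sums over members were not tested.

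**Figure D2:**
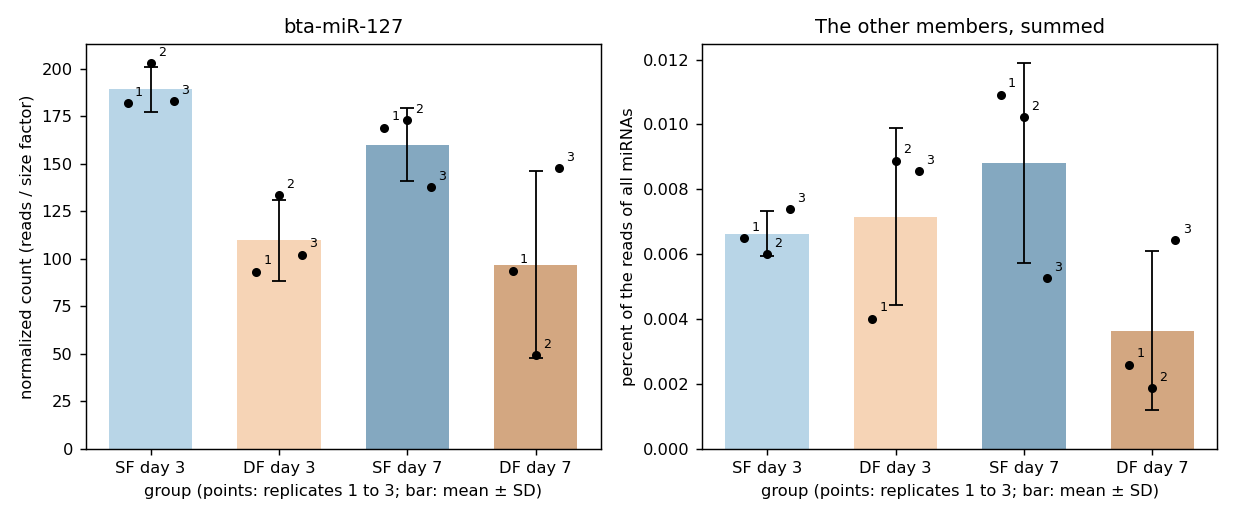
Left, normalized count of bta-miR-127 (reads divided by the size factor), and right, the other 53 members as a percent of the reads of all miRNAs; points are the libraries with their replicate numbers, bars the group mean ± SD (n = 3). At day 3 all SF points of bta-miR-127 lie above all DF points, at day 7 the groups overlap, and the right panel shows lower values in DF day 7 replicates 1 and 2.

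Bta-miR-127 is a conserved miRNA encoded opposite RTL1, whose transcript it is known to cut. Its normalized counts in replicates 1 to 3 were 182, 203 and 183 in SF day 3 and 93.2, 134 and 102 in DF day 3. At day 7 they were 169, 173 and 138 in SF and 93.8, 49.5 and 148 in DF, on 29 to 185 reads per library. All SF libraries lay above all DF libraries at day 3, and at day 7 DF replicate 3 exceeded SF replicate 3. By mean normalized count bta-miR-127 ranked 80 in SF day 3, 101 in DF day 3, 88 in SF day 7 and 107 in DF day 7. The best rank of any other member was 216, 212, 220 and 237 in the same order.

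The normalized count of bta-miR-127 was 189 ± 11.9 in SF day 3, 160.0 ± 19.3 in SF day 7, 109.7 ± 21.2 in DF day 3 and 97.0 ± 49.2 in DF day 7 (mean ± SD, n = 3). In this order, from high to low, both SF groups stood above both DF groups in their means. Of neighbours in this order, SF day 3 and SF day 7 did not overlap but were not called different, and SF day 7 and DF day 3 did not overlap and were not tested against each other. The spread of DF day 7, from 49.5 in replicate 2 to 148 in replicate 3, covered the whole DF day 3 range and reached into SF day 7. Its order among the 3 DF day 7 libraries was the reverse of that of the leukocyte miRNAs, which summed to 3189, 8856 and 803 in replicates 1, 2 and 3 where bta-miR-127 was at 93.8, 49.5 and 148. The erythrocyte list, at 1329, 2381 and 829, was also in the reverse order. Bta-miR-202, at 772, 374 and 1000.3, and the stromal list, at 12254, 8741 and 16997, were in the same order as bta-miR-127. The endothelial list, at 133, 148 and 164, and the epithelial list, at 0.877, 3.41 and 2.77, followed neither order. In SF day 7 the library with the most leukocyte miRNA, replicate 2 at 723, had the highest bta-miR-127, at 173. No link between these orders was tested.

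SF and DF were first compared at day 3. To be called, a miRNA had to change by 1 or more on the log2 scale in either direction, with a p no higher than 0.05 and a false discovery rate (FDR) no higher than 10%. The p came from the quasi-likelihood test of edgeR and was adjusted by the Benjamini-Hochberg method over all miRNAs tested. Of the 14 members tested none was called, where 5.67% of all miRNAs tested were. By edgeR 1 member had an unadjusted p under 0.05, and DESeq2 also called 0. That member was bta-miR-127, which was higher in SF by a log2 fold change of 0.74 (SE 0.18, 95% interval 0.36 to 1.12, edgeR adjusted p = 0.00797). Its normalized counts were 182 to 203 in SF and 93.2 to 134 in DF and did not overlap. Its change was past the FDR threshold but under the fold threshold, and with the spread estimated over all 12 libraries its adjusted p was 0.212. FDR of at most 10% alone was met by 16.7% of all miRNAs in this comparison. Over the alternatives its edgeR or DESeq2 adjusted p ranged from 0.00311 to 0.212. The other 13 members had edgeR adjusted p of at least 0.320. Bta-miR-409a had 5, 4 and 2 reads in SF and 0, 12 and 5 in DF, a log2 difference of -0.07 with a 95% interval of -1.62 to 1.48. Bta-miR-410 had 4, 1 and 5 reads in SF and 1, 7 and 3 in DF, a log2 difference of 0.39 with an interval of -1.19 to 1.96. Intervals of this width leave changes past the fold threshold within reach in either direction.

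**Figure D3:**
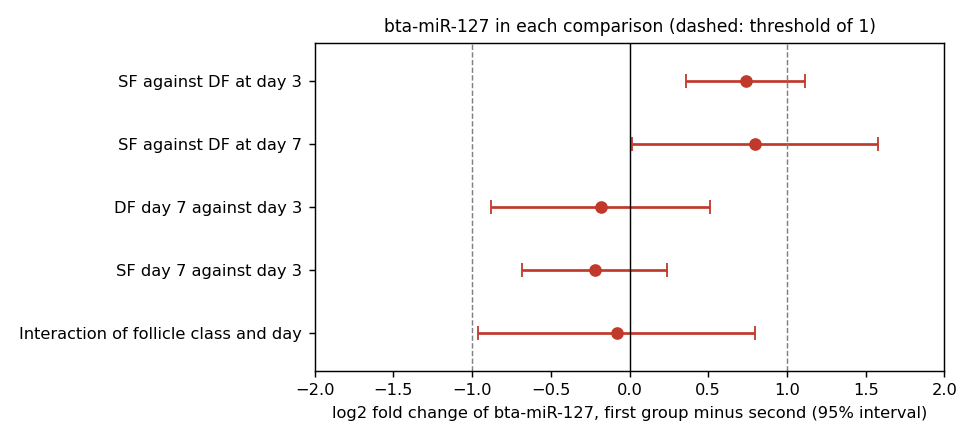
Log2 fold change of bta-miR-127 (first named group minus second) with its 95% interval in the 4 comparisons and the interaction; dashed lines mark the fold threshold of 1. The interval lies above 0 in both comparisons of SF against DF, from 0.36 to 1.12 at day 3 and from 0.02 to 1.58 at day 7, and covers 0 in the other 3.

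At day 7, 2 of the 11 members tested were called, both higher in SF, and 15.1% of all 350 miRNAs were called higher and 18.3% lower in SF. The members' share, 2 of 11, was thus near the background. These members were bta-miR-409a and bta-miR-665, and both were read in all 3 SF libraries and in no DF library. Both thus entered the test only through SF, the group in which they were high, which limits what their calls show. Bta-miR-409a had 4, 5 and 2 reads in SF and 0, 0 and 0 in DF (edgeR adjusted p = 0.0220). With DF set to the limit of 3 reads over the group and the SF reads taken as exact, it was 3.37-fold higher in SF. Bta-miR-665, which lies near MEG3, had 3, 1 and 2 reads in SF and 0, 0 and 0 in DF (edgeR adjusted p = 0.0579). Set against the same limit it was 1.84-fold higher in SF, on 6 reads taken as exact. With the replicate number as a block, which pairs the day 7 libraries, bta-miR-665 was no longer called (edgeR adjusted p = 0.145) and the count of called members went from 2 to 1. It was also lost without SF day 7 replicate 1 (edgeR adjusted p = 0.134) and without DF day 7 replicate 1 (0.128), while bta-miR-409a kept its call in each of the 6 fits without 1 library, with an adjusted p of 0.0278 to 0.0582. DESeq2 gave neither member an adjusted p at day 7 and called 0 members.

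Bta-miR-127 at day 7 had a log2 fold change of 0.80 (SE 0.35, 95% interval 0.02 to 1.58, edgeR adjusted p = 0.111) and its groups overlapped, since DF replicate 3 at 148 exceeded SF replicate 3 at 138. With the replicate block the log2 fold change was 0.89 and the edgeR adjusted p was 0.0212, past the FDR threshold, which 39.7% of all miRNAs met at day 7 without the block, and under the fold threshold. Without DF day 7 replicate 3 it was 1.20 with an adjusted p of 0.0398, and bta-miR-127 was called, as was bta-miR-410, which brought the called members from 2 to 4. Without DF day 7 replicate 2 it was 0.49. The size of the day 7 difference therefore rested on which DF library was kept. Replicates 3 and 2 had the highest and lowest bta-miR-127 of DF day 7.

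Bta-miR-410, bta-miR-411a and bta-miR-493 were among the members not called in the main fit at day 7. In that fit 33.4% of all miRNAs tested were called in either direction. Bta-miR-410, the member with reads in most libraries after bta-miR-127, had 6, 2 and 5 reads in SF and 1, 0 and 2 in DF, a log2 difference of 1.96 (95% interval 0.10 to 3.83, edgeR adjusted p = 0.101). Bta-miR-411a had 1, 0 and 0 reads in SF and 3, 1 and 3 in DF, a log2 difference of -2.45 (interval -4.83 to -0.06, edgeR adjusted p = 0.109). Both lie between MEG8 and MEG9, and their differences had opposite signs. Bta-miR-410 was called without SF day 7 replicate 2 (edgeR adjusted p = 0.0812) or DF day 7 replicate 3 (0.0897). Bta-miR-411a was called with TMM factors (edgeR adjusted p = 0.0977), with library size alone (0.0996), with all 12 libraries in one fit (0.0668), and without SF day 7 replicate 1 (0.0688) or DF day 7 replicate 2 (0.0864). Bta-miR-381 had 2, 3 and 0 reads in SF and 1, 1 and 9 in DF, with most of the DF reads in 1 library. Bta-miR-493 had 3, 2 and 2 reads in SF and 1, 0 and 2 in DF, and bta-miR-379 had 0, 2 and 1 in SF and 0, 0 and 2 in DF. The median log2 difference of the 11 members tested was 0.92, against -0.05 over all miRNAs tested. This median is a description only, since a member with few reads entered the test through the group in which it was read.

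**Figure D4:**
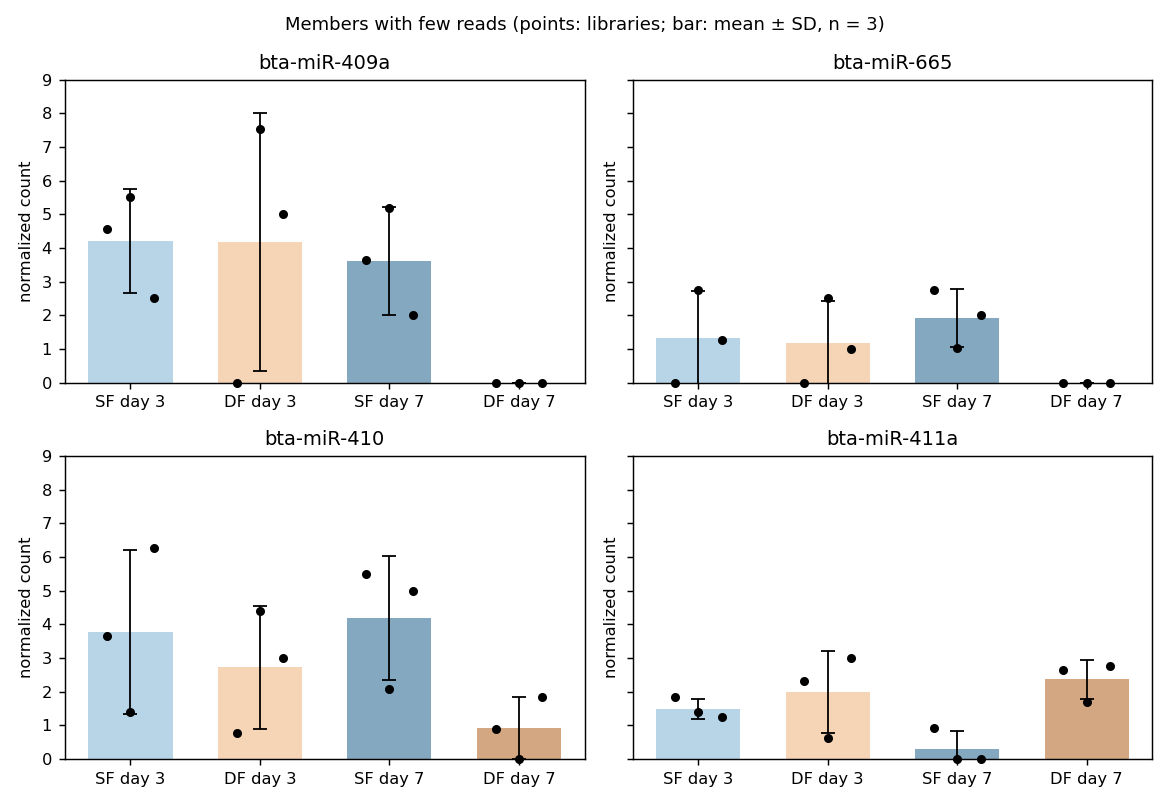
Normalized counts of bta-miR-409a, bta-miR-665, bta-miR-410 and bta-miR-411a in each library (points) with the group mean ± SD (bars, n = 3). Bta-miR-409a and bta-miR-665 were at 0 in all 3 DF day 7 libraries, and no group mean exceeded 4.20.

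Between the days, DF day 7 was compared with DF day 3. This comparison shares the DF day 7 libraries with the one above, so the values for bta-miR-409a in both rest on the same 3 libraries at 0. Of 12 members tested 1 was called, lower at day 7, against 40.3% of all 360 miRNAs called, 15.8% lower and 24.4% higher. Bta-miR-409a had 0, 12 and 5 reads in DF day 3 and none in DF day 7 (edgeR adjusted p = 0.0370). With DF day 7 set to 3 reads over the group and the day 3 reads taken as exact, it was 4.09-fold lower at day 7. The fitted 95% interval was -9.21 to -1.39 on the log2 scale. The groups overlapped at 0, as DF day 3 replicate 1 also had no read. The call was lost without DF day 7 replicate 1 (edgeR adjusted p = 0.106) and without DF day 3 replicate 2 or 3, when bta-miR-409a no longer met the detection rule in either group. Bta-miR-665 had 0, 4 and 1 reads at day 3 and none at day 7 (edgeR adjusted p = 0.145), and was called without DF day 3 replicate 1, the library without its reads. Bta-miR-127 differed by a log2 fold change of -0.18 with a 95% interval of -0.88 to 0.51 (edgeR adjusted p = 0.664), and by 0.11 without DF day 7 replicate 2. The median log2 difference was -0.31 over the 12 members tested and 0.05 over all miRNAs, again a description only, since bta-miR-409a, bta-miR-665 and bta-miR-154b had no read in DF day 7 and entered the test through DF day 3.

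In SF, day 7 was compared with day 3, and none of the 13 members tested was called by edgeR or DESeq2, where edgeR called 0.593% of all miRNAs tested. By edgeR 0 members had an unadjusted p under 0.05. Bta-miR-127 differed by a log2 fold change of -0.22 with a 95% interval of -0.68 to 0.24 (edgeR adjusted p = 0.885). Bta-miR-409a had 5, 4 and 2 reads at day 3 and 4, 5 and 2 at day 7, nearly the same in every library. Bta-miR-410 likewise had 4, 1 and 5 reads at day 3 and 6, 2 and 5 at day 7, with a log2 difference of 0.17 (interval -1.32 to 1.65). For members other than bta-miR-127 the SE of a log2 difference was between 0.67 and 1.91 over the 4 comparisons, so a change of the size of the fold threshold was mostly not detectable at this depth.

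Whether the difference between SF and DF itself differed between the days was tested as an interaction over all 12 libraries. For bta-miR-127 the interaction was -0.08 on the log2 scale with a 95% interval of -0.96 to 0.80 (edgeR adjusted p = 0.942), and its sign turned in 4 of 12 fits without 1 library. Of 14 members tested 1 was called, against 26.5% of all 378 miRNAs, and it was bta-miR-409a, higher in SF relative to DF at day 7 than at day 3 (edgeR adjusted p = 0.0742). That call was lost in 9 of the 12 fits without 1 library. It was kept only without SF day 3 replicate 2, SF day 7 replicate 3 or DF day 3 replicate 1, and without the last bta-miR-665 was called as well.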

How the data were processed

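Small RNA of granulosa cells was measured in 12 libraries, and groups and replicate numbers were taken from the sample labels. The authors prepared libraries with the TruSeq small RNA protocol, sequenced them on a HiSeq instrument, trimmed adapters with cutadapt, removed reads under 18 bases, aligned reads to the bovine genome (UMD 3.1) and counted those on miRBase 20 miRNAs with miRDeep2. The deposited values are raw read counts per pair of mature miRNA and precursor, with no normalization. Per the submitters' processing notes CASAVA 1.8.0 and FastQC were also used. Each mature name was represented by the precursor entry with the highest total, since a read matching several precursors may be counted at each. The members, marker lists and related lists were chosen with earlier results of these data known.

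Counts were tested in R 4.3.3 with edgeR 4.0.16 (glmQLFit and glmQLFTest, median-of-ratios factors, two-sided). Each comparison used its own 6 libraries and the miRNAs detected (1 read or more, 2 or more replicates of 3) in either group, and the interaction used all 12. The SE is the log2 fold change divided by the square root of F. A fitted fold change carries a prior count of 0.125. For a group at 0 a fold against 3 reads over the group was therefore given. That fold takes the reads of the other group as exact, so it is no lower limit of the change. Normalized counts use factors over all 12 libraries. The procedure was tested on simulated counts. Depth was 160418 to 405130 reads per library.

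The members with the value in every library are the 8 with the most reads and any called in a comparison. Other members are given by counts and ranges or as part of a family, and bta-miR-432, bta-miR-380-3p, bta-miR-487b, and the neighbours of bta-miR-127 were added for their place in the cluster after their values were seen. The tests were repeated with the Wald test of DESeq2 1.42.0, TMM factors, library size as the only factor, no filter, a minimum of 10 reads in 3 samples, summed precursors, the replicate block, an FDR of 5%, 1 fit of all 12 libraries, other detection rules, and leaving out each library in turn.

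Pairing by replicate number was checked on the correlation of same-numbered libraries' deviations from their group means. At day 7 all 3 pairs of SF and DF correlated, with r of 0.221 to 0.232 over 151 miRNAs. These 3 values are not independent, since deviations from a group mean cancel out. The main day 7 fit left the libraries unpaired, and the fit paired by replicate number was given beside it. This pairing comes from the data, since the labels tie no number to an animal. In the other comparisons r was -0.191 to 0.0736. No mature sequence was used here, so none is printed.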

Additional observations from a re-analysis of the deposited data

Results flagged for a closer look

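One result was flagged because a follicle difference was called different between the days. By the interaction test over 12 libraries bta-miR-409a was called (edgeR adjusted p = 0.0742), as were 26.5% of all 378 miRNAs tested. At day 3 the reads were 5, 4 and 2 in SF and 0, 12 and 5 in DF, and at day 7 they were 4, 5 and 2 in SF and 0, 0 and 0 in DF. Over the 12 fits without 1 library the edgeR adjusted p ranged from 0.0113 to 0.174. The call was lost in 9 of these fits and at an FDR of 5%.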

How the results depend on the processing

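At day 3 no member was called under any of the 15 alternatives, and the same held for SF day 7 against day 3. At day 7 the count of called members, 2, was 0 with DESeq2, which gave the members with few reads no adjusted p, 0 with a minimum of 10 reads in 3 samples, where those members are not tested, 1 with the replicate block and 1 at an FDR of 5%. Leaving out 1 library gave 1 to 4. For DF day 7 against day 3 the count of 1 was 0 with a minimum of 10 reads and 0 to 2 without 1 library. For the interaction it was 0 with a minimum of 10 reads, 0 at an FDR of 5% and 0 to 2 without 1 library. The log2 fold change of bta-miR-127 kept its sign under the 15 alternatives in SF against DF at both days and in SF between days. Leaving out 1 library it ranged from -0.59 to 0.11 in DF between days and from -0.34 to 0.34 in the interaction, changing sign in both. Outside day 7 the replicate numbers did not pair the libraries, and with the replicate block 0, 1, 0 and 1 members were called at day 3, in DF between days, in SF between days and in the interaction, as without it.

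The summed shares of SF day 3, DF day 3, SF day 7 and DF day 7 were 0.00663%, 0.00715%, 0.00880% and 0.00363% without bta-miR-127, and 0.225%, 0.145%, 0.206% and 0.0927% of the reads outside the 10 most abundant miRNAs. With counts summed over precursors, which enlarges the total, the shares of all members were 0.0566%, 0.0380%, 0.0465% and 0.0278% in the same order. Without 1 library the shares were 0.0747% to 0.0773%, 0.0455% to 0.0569%, 0.0586% to 0.0706% and 0.0286% to 0.0464%. With a read asked for in all 3 replicates 4, 7, 7 and 3 members were detected in SF day 3, DF day 3, SF day 7 and DF day 7. With at least 5 reads in 2 of 3 replicates 1, 2, 2 and 1 were detected in the 4 groups, and at the smallest library's total 6.92, 7.60, 8.20 and 4.63 would be expected, fewer in every group. Depth limits all members but bta-miR-127. The group means of the members other than bta-miR-127 did not exceed 4.20 normalized counts.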

Other observations

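Of 8 further miRNA names of the same region 5 were in the files. Bta-miR-411c-3p had 10 reads, bta-miR-411c-5p 6 and bta-miR-3956 1 over the 12 libraries, bta-miR-3957 and bta-miR-2364 had 0, and none was called in a comparison. Their summed normalized counts were at most 2.51 in any library.

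Of 6 miRNA names from other imprinted loci 2 were in the files, and both were called in comparisons with DF day 7. Of all miRNAs tested, 33.4% were called in SF against DF at day 7 and 40.3% in DF day 7 against day 3. Bta-miR-335, which lies within MEST, had 396, 173 and 269 reads in SF day 3, 197, 289 and 129 in DF day 3, 282 to 496 in SF day 7, and 7, 9 and 7 in DF day 7. It was higher in SF than in DF at day 7 (log2 fold change 5.46, SE 0.44, edgeR adjusted p = 4.22e-05) and lower in DF at day 7 than at day 3 (log2 fold change -4.18, SE 0.36, edgeR adjusted p = 5.10e-07). At day 3 bta-miR-335 was also higher in SF (log2 fold change 0.97, SE 0.18, edgeR adjusted p = 0.000409). That change was past the FDR threshold, which 16.7% of all miRNAs met at day 3, but just under the fold threshold. Bta-miR-483, which lies within IGF2, had 30, 0 and 37 reads in DF day 7 and at most 2 in any other library. It was lower in SF than in DF at day 7 (log2 fold change -4.69, SE 1.19, edgeR adjusted p = 0.0131), and DF day 7 replicate 2, the library with the most leukocyte miRNA, had none of its reads. The calls of both miRNAs came from comparisons with DF day 7, the group with less bta-miR-202 and more leukocyte and stromal miRNA. The part of these cells was not tested.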
